A study of Mus musculus with 7 samples.

Results

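The genes described here are 10 markers of fast-spiking parvalbumin interneurons and of the perineuronal net, the matrix that surrounds them. They were chosen by gene symbol from the 24346 genes of a cortical RNA-seq table. *Pvalb*, *Syt2* and *Erbb4* stand for the neuron, and *Acan*, *Hapln1*, *Hapln4*, *Bcan*, *Ncan*, *Tnr* and *Vcan* for the net. All 10 were found in the table. RNA came from the cerebral cortex of male mice on a C57BL/6J background at postnatal day 100, with 1 library per animal. In the 4 CrT-/y animals, exons 5 to 7 are deleted from *Slc6a8*, the gene of the creatine transporter, on the single X chromosome, and the 3 controls are CrT+/y littermates. The deletion is present in every cell of the body, so a change in 1 cell type cannot be assigned to loss of the transporter in that cell type. Whole tissue was sequenced, and fewer cells of a type and less RNA per cell cannot be told apart.

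Parvalbumin interneurons are GABAergic cells that fire fast trains of action potentials and inhibit the soma and the initial segment of pyramidal neurons. Many of them are wrapped in a perineuronal net, in which chains of hyaluronan carry chondroitin sulphate proteoglycans of the lectican family, link proteins pin the lecticans to hyaluronan, and tenascin-R ties the lecticans together. The net matures after birth, and its appearance accompanies the end of critical periods of cortical plasticity.

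The labels were checked first with *Slc6a8*. It stood at 12.4, 14.9, 14.7 and 15.7 FPKM (fragments scaled to transcript length and to the mapped fragments of the library) in CrT-/y libraries 0, 1, 2 and 3, and at 32.3, 29.6 and 28.05 FPKM in CrT+/y libraries 1, 2 and 3. The log2 fold change of FPKM + 0.1 was -1.05 (SE 0.09, limma, adjusted p = 0.00238), and the groups did not overlap. Throughout, fold changes are CrT-/y minus CrT+/y on the log2(FPKM + 0.1) scale, which understates changes of weakly expressed genes, and a gene was called at an adjusted p under 0.1. Libraries are always given in the order 0 to 3 for CrT-/y and 1 to 3 for CrT+/y.

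Of the 10 genes, 9 had a mean of at least 1 FPKM and were tested; *Acan* had less. *Hapln4* was the 1 gene called, and it fell. In the same test 10.1% of 12988 genes were called, 7.25% lower and 2.90% higher, so 1 call among 9 is near the background. The estimate was below 0 for 7 of the 9, against 58.2% of all tested genes. The median of the 9 log2 fold changes was -0.12, and that of all tested genes was -0.03. These medians were -0.062 and 0.028 after upper quartile scaling, and -0.057 and 0.0020 after a correction for transcript length. An unadjusted p under 0.05 was found for 3 of the 9, against 25.0% of all tested genes.

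**Figure D1:**
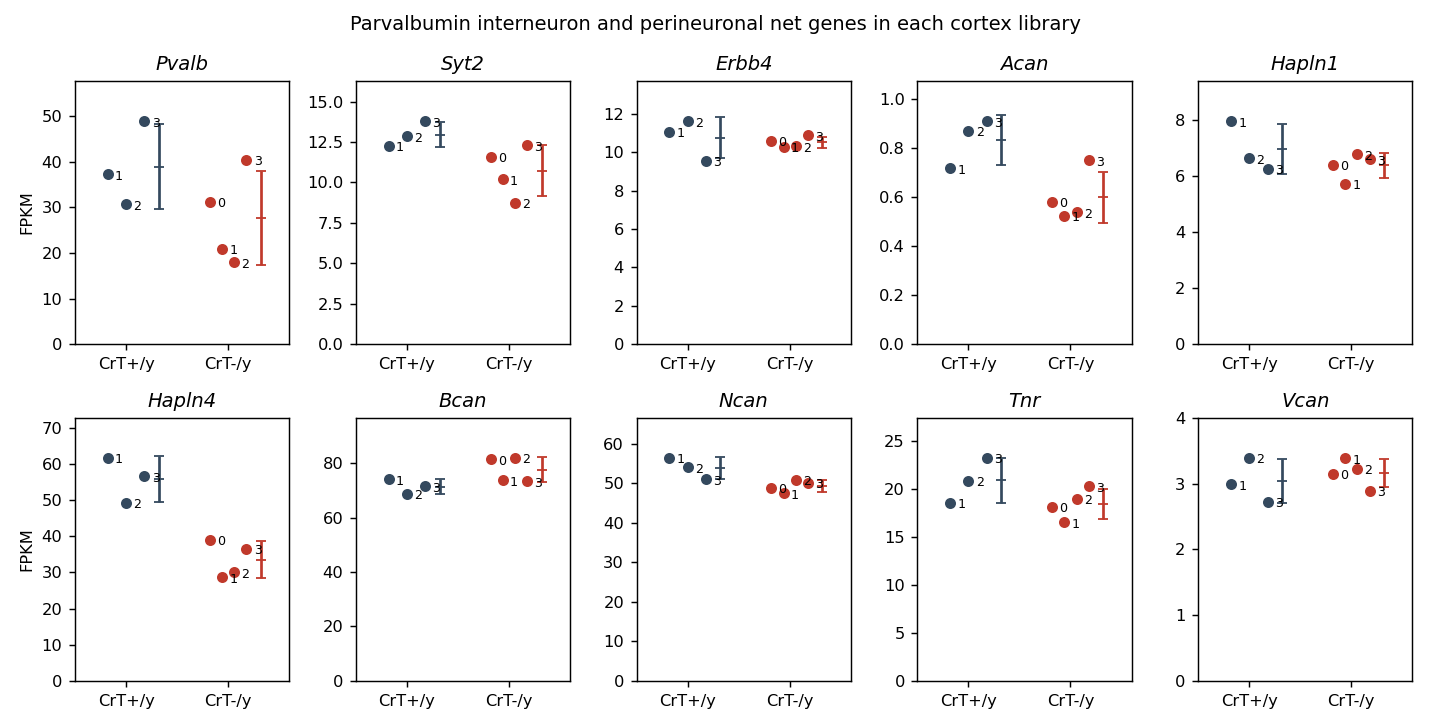
FPKM of the 10 genes in each library, with CrT+/y in blue and CrT-/y in red. Numbers beside points are replicate numbers and bars are the mean ± SD (n = 3 and n = 4). Only *Hapln4* and, by a narrow margin, *Ncan* have all CrT-/y libraries below all CrT+/y libraries. The same holds for 15.0% of all tested genes.

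Among the neuronal genes, *Pvalb* encodes parvalbumin, the calcium buffer that names the cells. Its level was 31.3, 20.9, 17.99 and 40.4 FPKM in CrT-/y and 37.3, 30.7 and 48.9 FPKM in CrT+/y libraries. The groups overlapped, because CrT-/y libraries 0 and 3 lay within the range of the controls, while libraries 1 and 2 lay below all of them. Mean *Pvalb* was 27.7 ± 10.2 FPKM in CrT-/y (SD, n = 4) against 39.0 ± 9.23 FPKM in CrT+/y (SD, n = 3). The log2 fold change was -0.54 (95% interval -1.13 to 0.05, limma, adjusted p = 0.235), and the exact permutation test gave p = 0.229. That test is two-sided and cannot go below 0.0286. It takes the absolute difference of mean FPKM over all 35 ways of assigning 7 libraries to the groups. Its p-values are given unadjusted for each of the 10 genes. For those not repeated below, the exact permutation test gave p = 0.629 (*Erbb4*), 0.4 (*Hapln1*), 0.171 (*Bcan*), 0.171 (*Tnr*) and 0.571 (*Vcan*). *Pvalb* varied widely among animals of 1 genotype. The SD of its log2 level within genotypes was 0.46, above that of 98.2% of tested genes, whose median was 0.11. The interval therefore spans both no change and a drop of more than 1 on the log2 scale.

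*Syt2* encodes synaptotagmin-2, the calcium sensor for fast release at the terminals of these cells. It was measured at 11.6, 10.2, 8.74 and 12.3 FPKM in CrT-/y and at 12.3, 12.8 and 13.8 FPKM in CrT+/y libraries. CrT-/y library 3 was marginally above CrT+/y library 1, and the other 3 CrT-/y libraries were below every control. Mean *Syt2* was 10.7 ± 1.58 FPKM in CrT-/y (SD, n = 4) against 13.0 ± 0.772 FPKM in CrT+/y (SD, n = 3), with a log2 fold change of -0.28 (95% interval -0.54 to -0.03, limma, adjusted p = 0.163). The exact permutation test gave p = 0.0857, so *Syt2* did not pass either test. *Erbb4*, the neuregulin receptor that these interneurons carry, showed the smallest estimate of all. It stood at 10.6, 10.3, 10.3 and 10.9 FPKM in CrT-/y and at 11.1, 11.6 and 9.56 FPKM in CrT+/y libraries. The CrT-/y values lay inside the range of the controls. Its log2 fold change was -0.03 (95% interval -0.20 to 0.14, limma, adjusted p = 0.850), and its sign turned under other scalings of the libraries.

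The bases before the start sites of *Pvalb* and *Syt2*, the 2 neuronal genes with the larger estimates, are shown with the estrogen-related receptor (ERR) element in capitals, because *Ppargc1a*, on which parvalbumin expression in cortex depends, encodes a coactivator of these receptors. Each window holds 250 bases upstream of a RefSeq start site on GRCm38.p6, at chr15:78206401-78206650 on the minus strand and chr1:134646362-134646611 on the plus strand, read 5′ to 3′ along the gene:
Pvalb: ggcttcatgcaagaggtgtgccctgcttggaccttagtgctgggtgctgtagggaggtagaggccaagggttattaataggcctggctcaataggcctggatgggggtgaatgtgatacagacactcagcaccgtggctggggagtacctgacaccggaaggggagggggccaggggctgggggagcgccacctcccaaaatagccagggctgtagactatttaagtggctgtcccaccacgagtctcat
Syt2: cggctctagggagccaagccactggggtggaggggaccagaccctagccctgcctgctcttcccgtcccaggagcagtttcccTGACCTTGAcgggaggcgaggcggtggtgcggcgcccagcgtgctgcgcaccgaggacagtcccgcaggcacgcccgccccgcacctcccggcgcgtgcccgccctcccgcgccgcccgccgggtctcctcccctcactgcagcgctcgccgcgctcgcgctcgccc
The *Syt2* window holds TCAAGGTCA on the opposite strand, with its first base in the window 167 bases before the start site (position -167), and the *Pvalb* window holds no match. RefSeq gives each gene a second window, at chr1:134709050-134709299 for *Syt2* and chr15:78204238-78204487 for *Pvalb*, and neither of these holds TCAAGGTCA or AAGGTCA. Of 27025 gene windows of this length, 0.366% hold TCAAGGTCA on either strand, and 4.05% hold the shorter AAGGTCA that lies inside it. In all, 6 motifs were searched in 11 windows of 9 of the 10 genes, and only the *Syt2* window shown held TCAAGGTCA or AAGGTCA. The other motifs were GGGCGG (32.9% of windows), CANNTG (66.0%), TATAAA (13.0%) and a MEF2 type motif (3.23%). TCAAGGTCA was added once the AAGGTCA match in *Syt2* had been seen, and a match is a description of letters, not of a bound site. *Ppargc1a* had a log2 fold change of -0.10 (limma, adjusted p = 0.495) and the receptor gene *Esrrg* one of -0.12 (limma, adjusted p = 0.470). Neither was called, and the other ERR genes were not among the genes listed.

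Link proteins come next. *Hapln4* encodes brain link protein 2, which lies in the nets of fast-spiking cells and at perisomatic inhibitory synapses. It was at 39.0, 28.7, 30.1 and 36.6 FPKM in CrT-/y libraries and at 61.7, 49.3 and 56.6 FPKM in CrT+/y libraries. Every CrT-/y library was below every control, and the highest of them was clear of the lowest control. Mean *Hapln4* was 33.6 ± 5.00 FPKM in CrT-/y (SD, n = 4) against 55.9 ± 6.25 FPKM in CrT+/y (SD, n = 3), so the level in CrT-/y was 60.1% of that in CrT+/y. The log2 fold change was -0.74 (SE 0.12, 95% interval -1.004 to -0.47, limma, adjusted p = 0.0253), and the exact permutation test gave p = 0.0286, the smallest it can give. Groups with all CrT-/y libraries below all controls were found for 15.0% of all tested genes. *Hapln4* kept its call when each of the 7 libraries was left out in turn (limma, adjusted p = 0.0148 to 0.0986).

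*Hapln1* encodes cartilage link protein 1, the link protein needed to assemble cortical nets. Its level was 6.41, 5.73, 6.77 and 6.60 FPKM in CrT-/y and 7.96, 6.63 and 6.27 FPKM in CrT+/y libraries. The groups overlapped and only CrT+/y library 1 stood above the rest. For *Hapln1* the log2 fold change was -0.12 (95% interval -0.34 to 0.10, limma, adjusted p = 0.487). The ratio of *Hapln4* to *Hapln1* FPKM was 6.09, 5.01, 4.44 and 5.54 in CrT-/y and 7.75, 7.44 and 9.03 in CrT+/y libraries. The mean log2 ratio was lower by estimate in CrT-/y, with a difference of -0.62 (exact permutation test, p = 0.0286, adjusted over 4 ratios 0.0381). The fall of *Hapln4* was thus larger than the change of *Hapln1* in these libraries. The difference was -0.62 for the ratio to *Ncan* and -0.45 for the ratio to *Syt2* (exact permutation test, p = 0.0286 for each, adjusted 0.0381), without overlap of the groups. For the ratio to *Pvalb* it was -0.20, with overlapping groups (exact permutation test, p = 0.543), so a different change of *Hapln4* and *Pvalb* was not detectable. These 4 ratios were chosen after the members' values had been seen, and each holds *Hapln4*, the 1 gene called. Their p-values describe these libraries and are not a separate test of *Hapln4*.

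**Figure D2:**
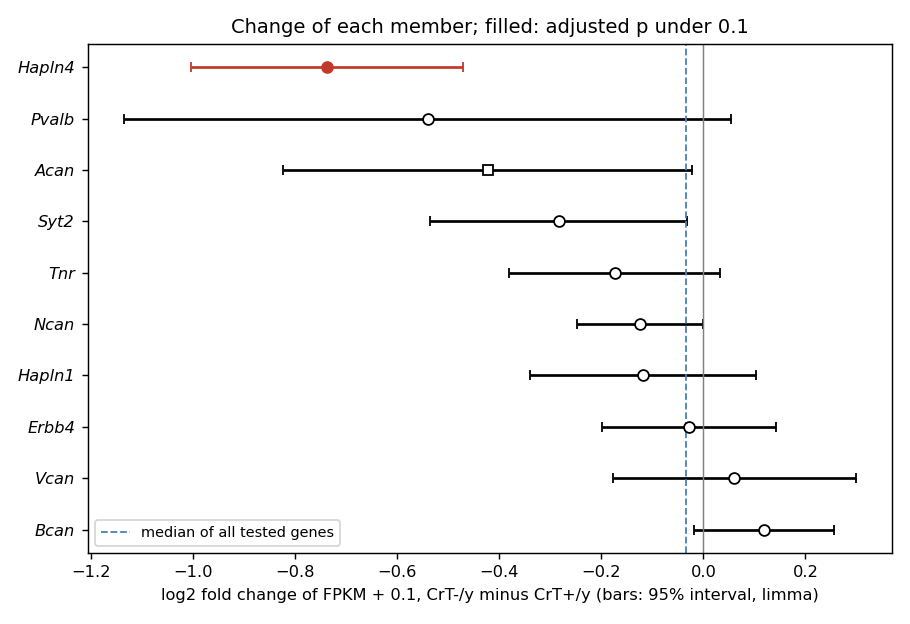
Log2 fold change of FPKM + 0.1, CrT-/y minus CrT+/y, for each of the 10 genes, with 95% intervals from limma. The filled red point is the gene called, *Hapln4* at -0.74, the square is *Acan*, which was tested only in the fit with a lower filter, and the dashed line is the median of all tested genes at -0.03.

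The lecticans are the proteoglycans of the net. *Acan* encodes aggrecan, the lectican that best marks mature nets. It was weak in whole cortex, at 0.581, 0.525, 0.538 and 0.751 FPKM in CrT-/y and 0.719, 0.870 and 0.910 FPKM in CrT+/y libraries. CrT-/y library 3 was above CrT+/y library 1, and the other 3 were below all controls. Mean *Acan* was 0.599 ± 0.104 FPKM in CrT-/y (SD, n = 4) against 0.833 ± 0.101 FPKM in CrT+/y (SD, n = 3). *Acan* was under the filter of 1 FPKM. In a fit with a mean of at least 0.1 FPKM, where 7.11% of genes were called, its log2 fold change was -0.42 (95% interval -0.82 to -0.02, limma, adjusted p = 0.207). The exact permutation test gave p = 0.0857, so aggrecan mRNA passed neither test.

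*Bcan* encodes brevican, which astrocytes and other glia also make, and it had the highest level of the 10 genes. Its level was 81.3, 73.7, 81.9 and 73.3 FPKM in CrT-/y and 74.0, 68.6 and 71.5 FPKM in CrT+/y libraries. CrT-/y libraries 0 and 2 were above all controls, and libraries 1 and 3 were not. For *Bcan* the log2 fold change was 0.12 (95% interval -0.02 to 0.26, limma, adjusted p = 0.257). *Ncan* encodes neurocan, a lectican of the diffuse matrix as well as of nets. It was at 48.9, 47.4, 50.9 and 50.1 FPKM in CrT-/y and at 56.4, 54.0 and 50.9 FPKM in CrT+/y libraries. All CrT-/y libraries were below all controls, as for 15.0% of all tested genes. However, CrT-/y library 2 and CrT+/y library 3 were nearly equal. The change was small, with a log2 fold change of -0.12 (95% interval -0.25 to -0.00038, limma, adjusted p = 0.199). The exact permutation test of *Ncan* gave p = 0.0286, but p = 0.171 after upper quartile scaling and p = 0.143 after median centring of the libraries. *Ncan* was called by limma when CrT+/y library 3 was left out (log2 fold change -0.16, adjusted p = 0.0554), in a fit that called 28.7% of all tested genes.

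*Vcan* encodes versican, the lectican of the diffuse matrix and of oligodendrocyte precursors. It was at 3.15, 3.39, 3.23 and 2.89 FPKM in CrT-/y and at 2.99, 3.39 and 2.73 FPKM in CrT+/y libraries, and the ranges coincided almost fully (log2 fold change 0.06, 95% interval -0.18 to 0.30, limma, adjusted p = 0.758). *Tnr* encodes tenascin-R, the cross-linker of the lecticans. It was at 18.2, 16.5, 19.0 and 20.3 FPKM in CrT-/y and at 18.6, 20.8 and 23.3 FPKM in CrT+/y libraries. The groups overlapped at CrT+/y library 1, and the log2 fold change was -0.17 (95% interval -0.38 to 0.03, limma, adjusted p = 0.265). The summed FPKM of *Acan*, *Bcan*, *Ncan* and *Vcan* was 134, 125, 137 and 127 in CrT-/y and 134, 127 and 126 in CrT+/y libraries. The lectican sum, made up mostly of *Bcan* and *Ncan*, covered overlapping ranges in the genotypes.

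The 10 genes kept nearly the same order of levels in both genotypes, on the FPKM scale, which is per transcript length. In CrT+/y the order was *Bcan*, *Hapln4*, *Ncan*, *Pvalb*, *Tnr*, *Syt2*, *Erbb4*, *Hapln1*, *Vcan* and *Acan*, and of these neighbours only *Hapln4* and *Ncan* had overlapping ranges. In CrT-/y the order differed at 1 place: *Hapln4* came after *Ncan* and its range was entirely below that of *Ncan*. There the ranges of *Hapln4* and *Pvalb*, of *Pvalb* and *Tnr*, and of *Syt2* and *Erbb4* overlapped. In numbers, the ratio of *Hapln4* to *Ncan* was 0.798, 0.604, 0.591 and 0.729 in CrT-/y and 1.09, 0.912 and 1.11 in CrT+/y libraries.

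*Hapln4* and *Ncan* are neighbours in the genome. On GRCm38 (GENCODE M21, the build of the mm10 alignments), *Hapln4* lies at chr8:70083457-70090862 on the plus strand and *Ncan* at chr8:70093085-70120873 on the minus strand, 2222 bases apart and pointing toward each other. The other link protein genes also lie beside a lectican gene. *Hapln1* and *Vcan* on chromosome 13 are 43659 bases apart and converge, and neither was called. *Hapln2* and *Bcan* on chromosome 3 are 21519 bases apart on the same strand, and neither was called (*Hapln2* log2 fold change -0.06, limma, adjusted p = 0.815). *Hapln3* ends 2 bases from the end of *Acan* on chromosome 7, on the opposite strand. Its level was 0.674, 1.16, 0.872 and 0.830 FPKM in CrT-/y and 0.332, 0.548 and 0.501 FPKM in CrT+/y libraries, so every CrT-/y library was above every control, as for 6.57% of the genes tested with the 1 FPKM filter. In the fit with the lower filter its log2 fold change was 0.81 (limma, adjusted p = 0.0873), against -0.42 for *Acan*. *Hapln3* was picked out after its values had been seen. Whether strand was used in the authors' counting is not given in the sources used here, and fragments at the touching ends of these genes may be assigned to either.

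Low values were not spread evenly over the CrT-/y libraries. CrT-/y library 1 was the lowest of the 7 libraries for 5 of the 10 genes (*Acan*, *Hapln1*, *Hapln4*, *Ncan* and *Tnr*) and among the lowest 2 for 8. CrT-/y library 2 was the lowest for *Pvalb* and *Syt2*. These libraries, 1 and 2, were the lowest 2 for *Pvalb*, *Syt2*, *Acan* and *Hapln4* alike, whereas CrT-/y library 3 was close to the controls for all of these but *Hapln4*. This pattern was also noticed in the values and was not tested. How often each library was the lowest over all tested genes is not given here, so the pattern is not known to be particular to these 10 genes.

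**Figure D3:**
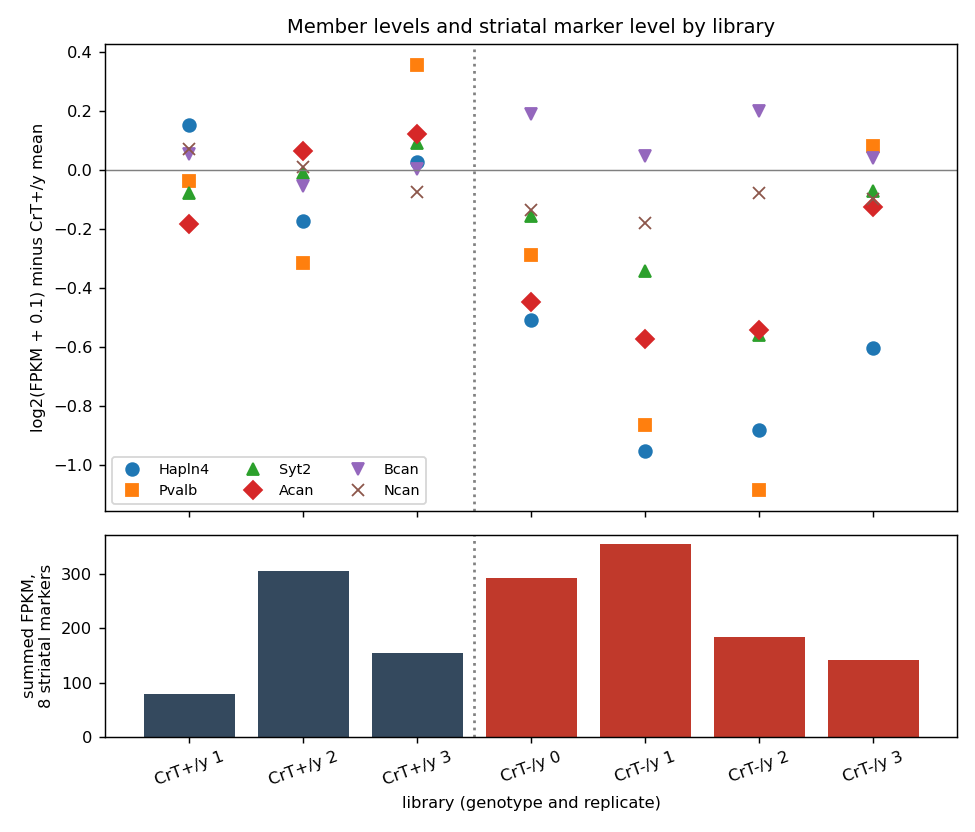
Upper panel: log2(FPKM + 0.1) of 6 of the genes in each library minus the CrT+/y mean of that gene. *Hapln4* is low in all 4 CrT-/y libraries, and *Pvalb*, *Syt2* and *Acan* are lowest in CrT-/y libraries 1 and 2. Lower panel: summed FPKM of 8 striatal marker genes, which ranges from 79.0 to 354 over the same libraries.

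Marker genes of the striatum, which lies under the cortex, differed widely between libraries. The 8 striatal markers summed to 292, 354, 184 and 141 FPKM in CrT-/y and to 79.0, 305 and 154 FPKM in CrT+/y libraries, none of them was called, and the median log2 fold change of the list was 0.69. None of the 8 was at 0 in all libraries. With the log2 striatal sum as a covariate, where 3.49% of genes were called, *Hapln4* had a log2 fold change of -0.66 (limma, adjusted p = 0.0618). In the 4 libraries with the lowest sums, 2 of each genotype, it was -0.83, no longer called (limma, adjusted p = 0.251). *Slc6a8* lost its call in that fit too, and 0.0154% of genes were called. Both alternatives were chosen after seeing the data. *Pvalb*, at -0.54 before, was not called in either. Excitatory neuron markers had 0 of 10 higher and 3 lower, among them *Neurod6* and *Nrgn* (median -0.17). Over all tested genes 2.90% were called higher and 7.25% lower. The excitatory markers summed to 2674 to 2909 FPKM in CrT-/y and 2877 to 3623 FPKM in CrT+/y libraries. The part of these differences in the levels of the 10 genes was not tested beyond the covariate.

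Other genes of fast-spiking cells were read beside *Pvalb*. Of 24 listed, all tested, 1 rose and 2 fell, and the median log2 fold change was -0.13. Over all tested genes 2.90% were called higher and 7.25% lower, and the median was -0.03. The same background holds for the lists that follow. *Nefh*, the heavy neurofilament subunit of large axons, was at 11.2, 9.54, 9.98 and 13.5 FPKM in CrT-/y and 15.7, 15.0 and 16.2 FPKM in CrT+/y libraries, and it fell by 0.51 on the log2 scale (limma, adjusted p = 0.0477). *Kcna2*, a potassium channel of axons and their initial segments, fell by 0.21 (limma, adjusted p = 0.0648). *Gad1*, an enzyme of GABA synthesis in all GABAergic neurons, those of the striatum included, rose by 0.24 (limma, adjusted p = 0.0970), from 98.4, 113 and 121 FPKM in CrT+/y to 132, 135, 124 and 132 FPKM in CrT-/y libraries. With the striatal covariate, where fewer genes were called in all, none of these 3 was called, and the log2 fold changes were -0.44 for *Nefh* (limma, adjusted p = 0.103), -0.20 for *Kcna2* (adjusted p = 0.138) and 0.20 for *Gad1* (adjusted p = 0.195). The potassium channel genes *Kcnc1* (-0.20, limma, adjusted p = 0.165) and *Kcnc2* (-0.14, limma, adjusted p = 0.276), which let these cells fire fast, were not called, nor was the lineage factor *Lhx6* (-0.18, limma, adjusted p = 0.195). Uncalled genes of the list with estimates above 0 included *Tac1* (0.93, limma, adjusted p = 0.119), *Scn4b* (0.28, adjusted p = 0.650), *Pthlh* (0.20, adjusted p = 0.440) and *Slc32a1* (0.17, adjusted p = 0.200). In all, 17 of the 24 estimates were below 0, against 58.2% of all tested genes.

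The calcium-binding relatives of parvalbumin gave 1 call among 10 tested of 12 listed, with a median of -0.16. *Calb2* encodes calretinin, which marks other interneurons, and it was at 14.1, 13.4, 13.1 and 9.82 FPKM in CrT-/y and 6.89, 9.50 and 6.92 FPKM in CrT+/y libraries. All CrT-/y libraries were above all controls, by a narrow margin for library 3, as for 6.57% of all tested genes. It rose by 0.69 on the log2 scale (limma, adjusted p = 0.0436), and the call held with the striatal covariate. That covariate does not cover other regions. The 6 listed olfactory bulb markers summed to 12.4, 20.3, 10.4 and 7.88 FPKM in CrT-/y and 4.72, 8.83 and 4.07 FPKM in CrT+/y libraries. Their part in the level of *Calb2* was not tested. *Calb1*, calbindin, was not called (-0.05, limma, adjusted p = 0.718). Among 12 other synaptotagmins, all tested, *Syt10* rose by 0.29 (limma, adjusted p = 0.0868) and none fell, with a median of -0.02. *Syt1*, the sensor of most forebrain synapses, had a log2 fold change of -0.03 (limma, adjusted p = 0.764).

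Partners of *Erbb4* gave 1 call among 10 tested of 12 listed, with a median of -0.12. *Nrg1*, the neuregulin ligand, was at 3.69, 3.17, 3.46 and 3.55 FPKM in CrT-/y and 4.76, 4.62 and 4.02 FPKM in CrT+/y libraries, and it fell by 0.35 on the log2 scale (limma, adjusted p = 0.0710). The ligand *Nrg3* (0.08, limma, adjusted p = 0.625) and the ligand-cleaving protease *Bace1* (-0.01, limma, adjusted p = 0.960) were not called.

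Of 20 other genes of the net and its surroundings, 13 were tested, 1 fell and none rose, with a median of -0.06. *Sema3a*, a chemorepellent held in nets, was at 7.96, 7.29, 6.64 and 7.22 FPKM in CrT-/y and 9.96, 8.80 and 8.69 FPKM in CrT+/y libraries, and it fell by 0.33 on the log2 scale (limma, adjusted p = 0.0618). Of 22 genes that build and sulphate chondroitin chains, 19 were tested, 1 rose and none fell, with a median of 0.03. The gene that rose was *Chpf2*, a chondroitin polymerizing factor, at 23.0, 22.3, 20.6 and 23.0 FPKM in CrT-/y and 18.2, 16.0 and 16.3 FPKM in CrT+/y libraries, with a log2 fold change of 0.40 (limma, adjusted p = 0.0289). Its relative *Chpf* had a log2 fold change of -0.13 (limma, adjusted p = 0.214). Of 25 proteases, hyaluronidases and inhibitors that remodel the net, 19 were tested and limma called none at an adjusted p under 0.1, with a median of -0.02. The smallest p there belonged to *Mmp14*, a membrane-bound metalloprotease (0.40, limma, adjusted p = 0.130), and *Adamts4*, an aggrecanase, had a log2 fold change of -0.25 (limma, adjusted p = 0.377).

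**Figure D4:**
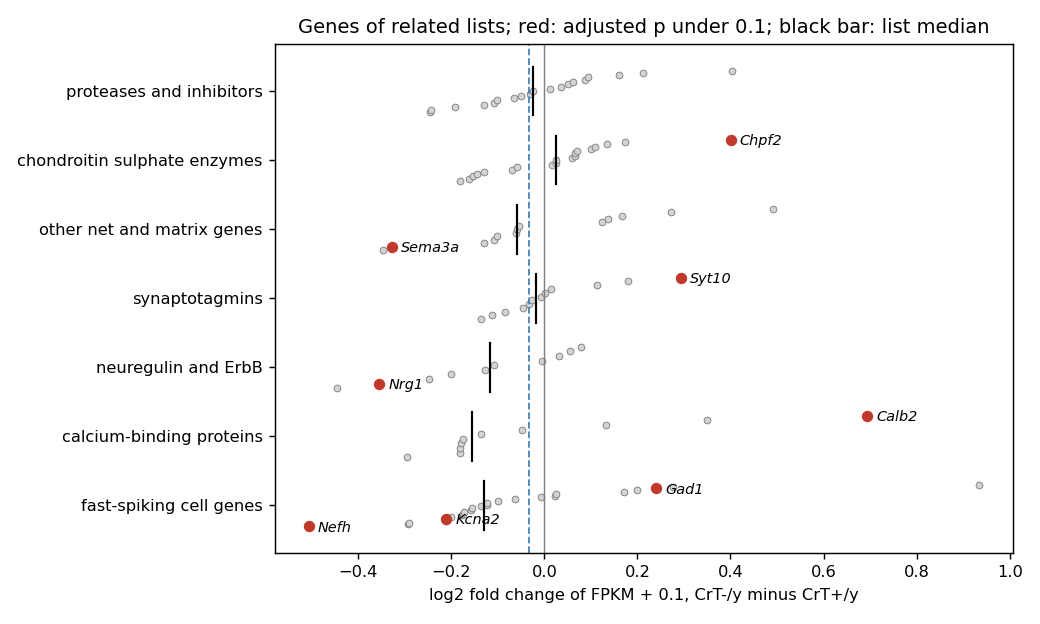
Log2 fold change, CrT-/y minus CrT+/y, of the tested genes of 7 related lists, with calls in red and named, list medians as black bars and the median of all tested genes as a dashed line. Across the lists 8 genes were called, *Nefh*, *Kcna2*, *Nrg1* and *Sema3a* below 0 and *Gad1*, *Calb2*, *Syt10* and *Chpf2* above 0. Over all tested genes, 10.1% were called.

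Each of the 8 calls in these lists was lost when at least 1 library was left out, with no change of sign, and 2 of the 8, *Calb2* and *Chpf2*, were kept with the striatal covariate. Leaving out a library also lowered the number of calls over all genes, except for CrT+/y library 3. *Chpf2* was lost only without CrT-/y library 1, where its log2 fold change was 0.40 as before (limma, adjusted p = 0.109) and 0.493% of all tested genes were called. *Calb2* and *Nefh* were lost without CrT-/y library 1, CrT-/y library 2 or CrT+/y library 1. *Sema3a* was lost when any 1 of these 3 libraries or CrT-/y library 3 was left out, and *Kcna2* when any 1 of the 4 CrT-/y libraries or CrT+/y library 1 was. *Gad1*, *Nrg1* and *Syt10* were kept only when CrT+/y library 3 was the library left out.

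The tested genes whose profile over the 7 libraries was most like that of *Hapln4*, each gene centred on its mean, were *Ddit4l*, *Ap1s3* and *Hsp90b1*. Their root mean square differences from it were 0.11, 0.14 and 0.14 on the log2 scale, against a median of 0.40 over all tested genes. *Hsp90b1*, a chaperone of the endoplasmic reticulum, was at 103, 88.3, 93.5 and 97.7 FPKM in CrT-/y and 149, 139 and 134 FPKM in CrT+/y libraries. For *Pvalb* they were *Pglyrp1*, *Vmn2r29* and *Layn*, at 0.16, 0.20 and 0.22, against a median of 0.48. *Pglyrp1* followed *Pvalb* with 4.95, 3.76, 3.36 and 5.84 FPKM in CrT-/y and 5.22, 5.58 and 8.53 FPKM in CrT+/y libraries. *Vmn2r29* belongs to a large family of similar receptor genes, and its reads are uncertain. The list is a description over 7 libraries that share the difference between genotypes.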

How the data were processed

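The series holds cortical RNA-seq of 7 males, 4 CrT-/y and 3 CrT+/y; groups and replicate numbers came from the sample labels. The authors aligned reads to mm10 with the Tuxedo protocol (Bowtie and Cuffnorm are named in the submitters' processing notes), kept unique alignments with at most 2 mismatches, and deposited FPKM per gene and animal. These values are scaled to transcript length and mapped fragments, no counts were used, and depth per library was not used here, so no counting interval is given. The members and gene lists were chosen with earlier results of these data known.

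The 12988 genes whose mean reached 1 FPKM were tested on log2(FPKM + 0.1) with limma 3.58.1 (R 4.3.3), on genotype, with a variance trend and Benjamini-Hochberg adjustment. Single values were compared by exact permutation tests (scipy 1.17.1). Named were the 10 genes, *Slc6a8*, every gene of the related lists with an adjusted p under 0.1 (or the smallest p in a list without one), the marker genes called (1 result is not reported here), and the 3 most similar profiles of *Hapln4* and *Pvalb*. Other genes given as background to a member (*Ppargc1a*, *Esrrg*, *Hapln2*, *Hapln3*, *Kcnc1*, *Kcnc2*, *Lhx6*, *Calb1*, *Syt1*, *Nrg3*, *Bace1*, *Chpf* and *Adamts4*) were picked for their known role, with their values seen. *Tac1*, *Scn4b*, *Pthlh*, *Slc32a1*, *Olig1*, *Pdgfra*, *Cspg4* and *Slco1a4* were added, also with their values seen, to show more of their lists.

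Of 24346 symbols, 23318 matched GENCODE M21 and 665 matched by a synonym. RefSeq windows were found for 9 of the 10 genes. In simulated data, with 200 of 12988 genes changed, the fit recovered 20% at a log2 change of 0.3, 82.5% at 0.6 and 93.5% at 1. Of the genes called there, 9.09%, 7.82% and 11.4% were unchanged. The simulated noise was normal and independent between genes, without differences shared across a library, so these shares may not hold for the real libraries. In all, 22 other settings were run, 2 of them added after seeing the data. They covered pseudocount, filter, scaling, transcript length, moderation, weights, replicate block, each library left out, and striatal markers.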

Additional observations from a re-analysis of the deposited data

Results flagged for a closer look

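In CrT-/y library 1, *Cdhr1*, a cadherin-related gene of olfactory bulb mitral cells, was at 9.14 FPKM, far from the other 3 CrT-/y libraries, which were at 2.83 to 3.44 FPKM. Among 51 measures checked in the 4 CrT-/y libraries, it was the 1 measure with such a gap, and chance gives about 1 in 20. CrT-/y library 1 is also the library with the lowest *Hapln4*, at 28.7 FPKM. *Hapln4* kept its call without that library.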

How the results depend on the processing

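*Hapln4* kept its sign under all 22 alternatives, at -0.83 to -0.66 on the log2 scale (limma, adjusted p = 0.0148 to 0.251), and lost its call only in the 4 libraries with the lowest striatal markers, at -0.83, where *Slc6a8* did so too, at -0.98 (limma, adjusted p = 0.189), 0 of the 10 genes were called and 2 globin genes, *Hba-a2* and *Hbb-bs*, were called in all (named after their values were seen; each has a near-identical copy, so their reads are uncertain). The number of genes called, 1318, went to 730 without a filter, 453 with the striatal covariate, and between 64 (without CrT-/y library 1) and 3733 (without CrT+/y library 3). Without single libraries, 1 to 2 of the 10 genes were called; the second was *Ncan* without CrT+/y library 3, at -0.16, where *Vcan* turned to -0.012. *Erbb4* turned sign to 0.0056 with quantile normalization, 0.034 with upper quartile scaling, 0.0096 with median centring, 0.050 with the length correction, 0.030 without CrT+/y library 2 and 0.041 in the low striatal libraries. Left-out libraries moved *Erbb4* between -0.11 and 0.030, *Vcan* between -0.012 and 0.14, *Ncan* between -0.16 and -0.089, *Pvalb* between -0.75 (without CrT-/y library 3) and -0.36 (without CrT-/y library 2), *Hapln1* between -0.19 (without CrT+/y library 3) and -0.018 (without CrT+/y library 1; -0.068 without CrT-/y library 1), and *Tnr* between -0.25 (without CrT+/y library 1) and -0.094 (without CrT+/y library 3). In the exact permutation tests *Ncan* gave p = 0.171 with upper quartile scaling and 0.143 with median centring, and *Erbb4*, with the sign turned, 0.743 and 0.943. These tests were not run without single libraries, where so few libraries cannot reach the threshold, or under other scalings for *Acan*, which is under the filter. The calls over all genes were 377 higher and 941 lower, but 741 and 463 with upper quartile scaling, 528 and 555 with quantile normalization, 490 and 527 with median centring, and 575 and 663 with the length correction.

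Equal replicate numbers did not pair the libraries: the deviations of same-numbered libraries correlated at -0.08, 0.05 and -0.05 across genes, and not every library correlated best with its own number. With a replicate block, without CrT-/y library 0, which has no partner, 575 genes (4.43%) were called, and 366 with the block and the length correction. In both, 2 of the 10 genes were called, *Hapln4* and *Pvalb*, the latter at -0.62 with the block (limma, adjusted p = 0.0772) and -0.68 with block and length correction (adjusted p = 0.0957), and *Erbb4* was at 0.047 in the fit with block and length correction. The cause of these shifts was not tested.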

Other observations

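Markers of other cells that make net components were listed as well. For comparison, 2.90% of all tested genes were called higher and 7.25% lower. Oligodendrocyte precursors, which make *Vcan* and *Bcan*, had 1 of 8 markers lower (*Olig2*, median log2 fold change -0.23), and their summed level was 87.3 to 106 FPKM in CrT-/y and 109 to 119 FPKM in CrT+/y libraries. The largest part of that sum was *Olig1*, not called, at 43.8 to 56.0 FPKM in CrT-/y and 54.0 to 60.9 FPKM in CrT+/y libraries. All 8 estimates were below 0, but *Pdgfra* (-0.07, limma, adjusted p = 0.558) and *Cspg4* (-0.11, adjusted p = 0.557) had overlapping groups and were not called. Astrocytes, which make *Bcan* and *Ncan*, had 1 of 8 lower (*Sox9*, median -0.12), at 851 to 929 FPKM in CrT-/y and 888 to 1065 FPKM in CrT+/y libraries. Their part in the levels of *Vcan*, *Bcan* and *Ncan* was not tested.

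Markers of other interneurons had 1 of 9 tested higher (*Calb2*) and 1 lower (*Cck*), with a median of 0.03. Endothelial markers had 3 of 8 lower (*Flt1*, *Pecam1* and *Ly6c1*, median -0.20), against 7.25% of all tested genes. Estimates were below 0 for 7 of the 8. The exception was *Slco1a4* (0.15, limma, adjusted p = 0.170), with every CrT-/y library above every control, as for 6.57% of all tested genes. No marker was called among 8 of oligodendrocytes (median -0.19), 8 of microglia (-0.04), 8 of the thalamus (-0.13), 5 of the hippocampus (0.07) and 3 of the choroid plexus (-0.61). Among 4 of the olfactory bulb, *Cdhr1* was higher (median 1.00). The choroid plexus sum ran from 3.14 to 52.8 FPKM in CrT-/y and from 6.26 to 403 FPKM in CrT+/y libraries.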
